A study of Neurospora crassa with 16 samples.

Results

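Described here are 6 messenger RNAs of the filamentous fungus Neurospora crassa, out of 9730 counted genes, in a strain that lacks lysine-specific demethylase 1 (LSD1), a histone demethylase. They are the 5 transcripts with the most reads, from ccg-14 (NCU07787), gpd-1 (NCU01528, also named ccg-7), NCU00399, ccg-13 (NCU08907, also named ncw-7) and NCU05395, together with ccg-1 (NCU03753). The first 5 were chosen by their mean CPM, reads scaled to a common library total, over the libraries described here, so their height is a description and not a finding, and ccg-1 was added by name. Within this choice, 4 of the 6 carry a clock-controlled gene name in the reference table, namely ccg-14, gpd-1, ccg-13 and ccg-1.

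The series holds 16 samples of DNA methylation, histone marks and polyadenylated RNA. They are of Δlsd1 strains, alone or with a mutation of dim-2 or hda-1, and of a catalytic null lsd1 strain. The only wild-type sample among them is of the histone mark H3K4me3. Only the 2 Δlsd1 RNA libraries have count files here, both from strain N5555, of mating type a with lsd1 replaced by the hygromycin resistance marker hph. They came from germinated conidia, the asexual spores, shaken at 32 °C for 16 h in minimal medium holding 1.5% sucrose. Wild type, strain N3752 of mating type A, enters the comparison of RNA only through 2 deposited tables. In these the authors list genes called higher or lower in Δlsd1, so mating type and series differ along with lsd1. Both libraries are of a single strain, and nothing in the labels says whether they were separate cultures, so the spread between them may be technical alone. The p-values below for the split of reads between the libraries cover counting error only. NCU09120, treated as lsd1 by prior knowledge, since the reference table has no symbol for it, had 41 and 65 reads in replicates 1 and 2, and stood in the authors' deposited table of lower genes with a log2 fold change of -2.93 (adjusted p = 7.06e-15). Reads on genes came to 7017726 in replicate 1 and 6797672 in replicate 2.

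As background, Neurospora keeps a circadian clock in which the FRQ protein feeds back on the White Collar transcription factors, and the genes that this clock drives in daily rhythm are called clock-controlled genes, ccg for short. Several of them are among the most heavily transcribed genes of the fungus, and their products serve metabolism, the cell surface and stress responses. The gpd-1 product, glyceraldehyde-3-phosphate dehydrogenase, carries out the oxidative step of glycolysis, and ccg-1 is also known as a gene repressed by glucose. The name ncw of ccg-13 stands for a non-anchored cell wall protein. The reference table gives no name or function for NCU00399 or NCU05395. The sources used here give neither the light regime nor the time of day at harvest, so no phase of the clock can be assigned to either library.

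The clock-controlled gene ccg-14 (chromosome V, 301242 to 304089, assembly NC12) had more reads than any other gene in both libraries. It took 260307 reads in replicate 1, or 37093 CPM, and 321569 reads in replicate 2, or 47306 CPM. These were 3.71% of the reads on genes in replicate 1 (3.70 to 3.72) and 4.73% in replicate 2 (4.71 to 4.75), with exact Clopper-Pearson 95% intervals, here and below, that cover counting error only. The share was higher in replicate 2, by far more than those intervals.

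The glycolytic gene gpd-1 (chromosome II, 3180104 to 3182245) was next in both libraries. It had 156865 reads in replicate 1, at 22353 CPM, and 172584 in replicate 2, at 25389 CPM. Its share was 2.24% in replicate 1 (2.22 to 2.25) and 2.54% in replicate 2 (2.53 to 2.55), which made it the steadiest of the 6 transcripts, with a coefficient of variation of 8.99% over the libraries.

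NCU00399 (chromosome III, 3721537 to 3723507) and the cell wall gene ccg-13 (chromosome V, 678921 to 680033) followed. NCU00399 had 110617 reads in replicate 1, at 15763 CPM, and 144043 in replicate 2, at 21190 CPM. For ccg-13 the counts were 105226 in replicate 1, at 14994 CPM, and 124310 in replicate 2, at 18287 CPM. Both were higher in replicate 2. Their ranges over the libraries overlapped, with NCU00399 above ccg-13 in each library. NCU00399 shares its first 368 bp with the end of NCU00398, and without a stated use of strand in counting, reads there cannot be assigned with certainty. NCU00398 itself had 240 reads in replicate 1 and 203 in replicate 2.

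NCU05395 (chromosome II, 1519898 to 1520985) was the last gene inside the choice. It had 97220 reads in replicate 1, at 13853 CPM, and 117328 in replicate 2, at 17260 CPM. Its mean of 15557 CPM lay just above the 15439 CPM of nmt-1, a gene of thiamine synthesis, which was the first gene outside. With replicate 1 taken alone the order was another one, since nmt-1 ranked 3 there and NCU05395 ranked 7, while in replicate 2 NCU05395 ranked 5 and nmt-1 ranked 9. The 4 genes after nmt-1 were NCU07569 at a mean of 14626 CPM, NCU06110 at 14059, the pyruvate decarboxylase gene cfp at 13256 and NCU07232 at 12854. Membership at this end thus rests on the mean over both libraries, whereas ccg-14 and gpd-1 ranked 1 and 2 in each.

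The transcript of ccg-1 (chromosome V, 2302672 to 2303443) was less abundant and ran the other way between the libraries. It had 31962 reads in replicate 1, at 4554 CPM, and 19167 in replicate 2, at 2820 CPM. This was 0.455% of the reads in replicate 1 (0.450 to 0.460) and 0.282% in replicate 2 (0.278 to 0.286). It ranked 26 in replicate 1 and 38 in replicate 2, and 33 by the mean.

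**Figure D1:**
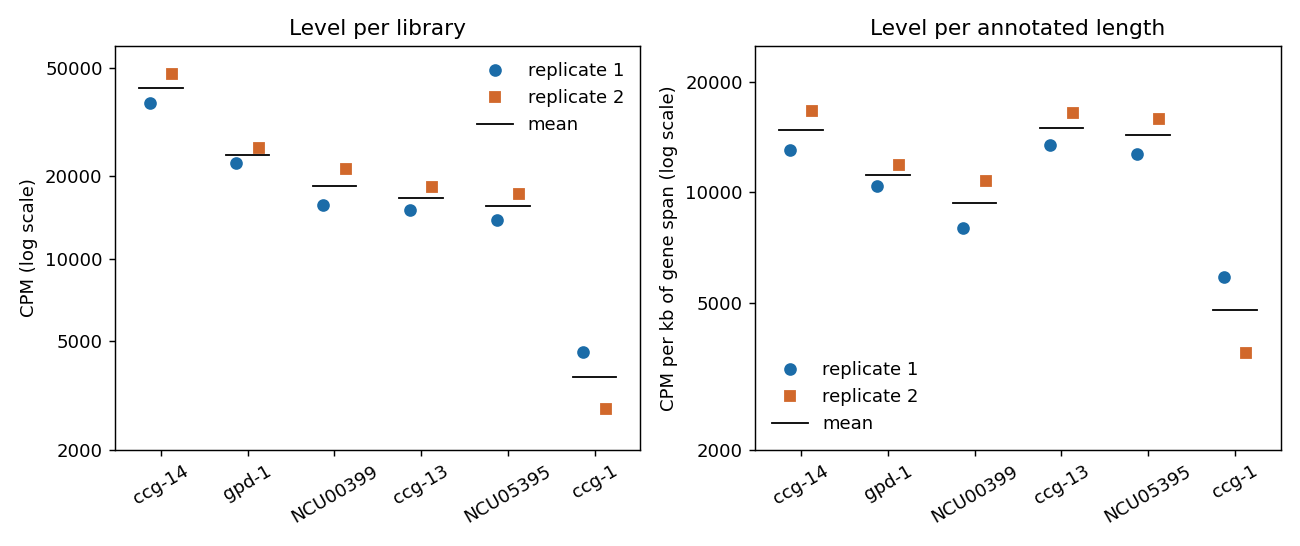
Level of each transcript in both Δlsd1 libraries as CPM (left) and as CPM per kb of annotated gene span (right), on log axes. Circles are replicate 1, squares replicate 2 and bars the mean of both. The 5 transcripts with the most reads are higher in replicate 2, and ccg-1 is higher in replicate 1, at 4554 against 2820 CPM.

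Per kb of annotated gene span, which sets aside that long genes gather more reads, the order changed although the same 5 genes stayed on top. The highest was ccg-13 at 14951 ± 2092 CPM per kb (SD, n = 2), followed by ccg-14 at 14817 ± 2536 and NCU05395 at 14298 ± 2214 CPM per kb (SD, n = 2 each). The ranges of these 3 over the libraries overlapped. Between the libraries ccg-13 and ccg-14 exchanged places, so their levels per length were not distinguished. NCU05395 lay below both in each library, at 12733 CPM per kb in replicate 1 and 15864 in replicate 2. Then came gpd-1 at 11144 ± 1002 CPM per kb (SD, n = 2), below NCU05395 in both libraries without overlap. NCU00399 followed at 9374 ± 1947 CPM per kb (SD, n = 2), lower than gpd-1 in each library although their ranges overlapped. Last was ccg-1, at 5900 CPM per kb in replicate 1 and 3652 in replicate 2. With its short span of 772 bp it ranked 14 per length, against 33 by reads. The span counts introns and untranslated ends, and the 2848 bp of ccg-14 were the longest of the 6.

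Together the 6 transcripts took 10.9% of the reads on genes in replicate 1 and 13.2% in replicate 2, a mean of 12.04% ± 1.67 (SD, n = 2). The reads of both libraries were concentrated on few genes, and more so in replicate 2. The 100 highest genes of each library held 45.2% of its reads in replicate 1 and 47.4% in replicate 2, and 50% of the reads fell on 143 genes in replicate 1 and on 123 in replicate 2. Since CPM values share one total, the reads taken by the 6 transcripts alone shift the plain CPM of every other gene by 0.04 on the log2 scale, towards replicate 1.

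**Figure D2:**
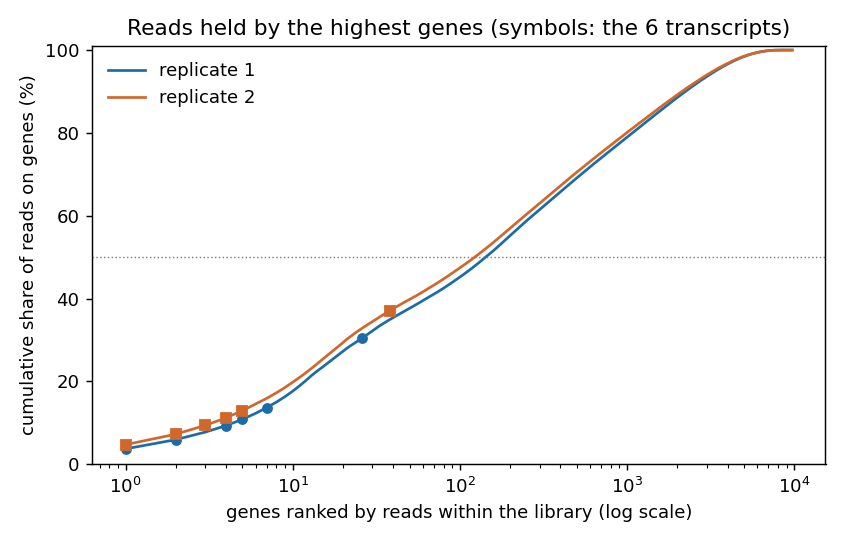
Cumulative share of reads on genes, in percent, against the rank of the gene by reads within its library (log axis), for replicate 1 and replicate 2. Symbols mark the 6 transcripts at their ranks, and the dotted line is at 50%, which replicate 1 reaches with 143 genes and replicate 2 with 123.

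The difference between the libraries was then set beside that of all genes. It is given as the log2 of the level in replicate 1 over that in replicate 2, with libraries scaled by the trimmed mean of M values (TMM), which leaves extreme genes out of the scaling. This shift was -0.42 for ccg-14 (-0.43 to -0.42), -0.26 for gpd-1 (-0.27 to -0.25) and -0.50 for NCU00399 (-0.51 to -0.49). For ccg-13 the shift was -0.36 (-0.37 to -0.35) and for NCU05395 it was -0.39 (-0.40 to -0.38), so the 5 leading transcripts all lay higher in replicate 2, by 1.19-fold for gpd-1 up to 1.41-fold for NCU00399. The shift of ccg-1 was 0.62 (0.59 to 0.64), or 1.54-fold higher in replicate 1.

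All 6 passed an exact two-sided binomial test of the split of their reads, with p-values adjusted by Benjamini-Hochberg over 7319 genes that had at least 10 reads in each library. The adjusted p of each was too small for the computation to hold and was returned as 0. The test compares 2 libraries of the same group, not conditions, and knows counting error alone. Of the 7319 genes 27.1% passed it, 13.1% higher in replicate 1 and 14% higher in replicate 2. Among the 100 genes with the highest mean CPM, which have the most reads, 85 passed, 26 higher in replicate 1 and 59 in replicate 2. At such depth even the shift of 0.02 of NCU06110 passed (exact binomial test, adjusted p = 0.00332).

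The shifts of the leading transcripts were of a common size over all tested genes, and less common among the 100 highest genes. The biological coefficient of variation, estimated by edgeR over the same genes as a common dispersion, was 15.3%. Despite its name it may be technical, since separate cultures are not stated. The 15.3% corresponds to a standard deviation of 0.31 for a log2 shift. The shift of gpd-1 was 0.821 times that size, that of ccg-13 1.15 times, that of NCU05395 1.25 times, that of ccg-14 1.36 times and that of NCU00399 1.60 times. Shifts at least as large in either direction were seen at 42.0% of all tested genes for gpd-1 and at 15.8% for NCU00399, with the other 3 in between. Of the 100 highest genes, the gene itself included, 40 had a shift at least as large as that of gpd-1 and 22 as that of ccg-13. For NCU05395 this number was 14, for ccg-14 it was 11 and for NCU00399 it was 6. The shift of ccg-1 was 1.98 times the spread, and 9.50% of all tested genes had one as large. Among the 100 highest genes 2 did, ccg-1 itself and the cell wall gene ncw-5, whose shift of -0.64 ran towards replicate 2. The shift of ccg-1 was the highest towards replicate 1 among those 100 genes, whose median was -0.11.

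**Figure D3:**
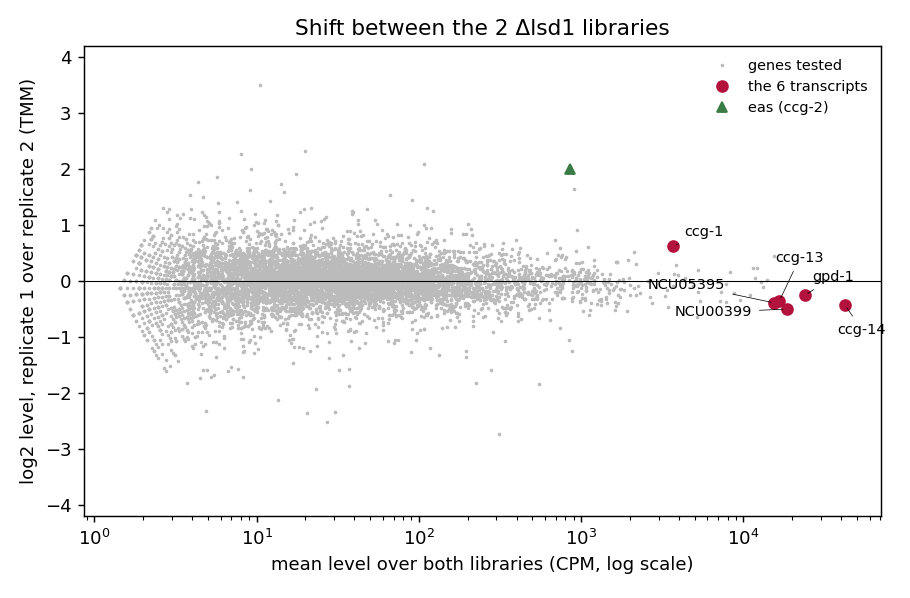
Log2 shift between the libraries (replicate 1 over replicate 2, TMM scaling) against the mean level in CPM (log axis), one grey point for each of 7319 tested genes, with the 6 transcripts in red and the hydrophobin gene eas as a green triangle. The 5 leading transcripts lie between -0.50 and -0.26 at the right edge, ccg-1 at 0.62 and eas at 2.00.

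The directions did not depend on how the libraries were scaled. Over 7 scalings and filters ccg-14 ranged from -0.43 to -0.31, gpd-1 from -0.26 to -0.14, NCU00399 from -0.50 to -0.39, ccg-13 from -0.36 to -0.25, NCU05395 from -0.39 to -0.28 and ccg-1 from 0.61 to 0.73. The value nearest to 0 for each of the 5 leading transcripts came from centring on the median of the 100 highest genes, an alternative added after the data were seen. That scaling moved the median of all tested genes to 0.12 and the share of passing genes that were higher in replicate 1 to 72.4%, against 48.2% with TMM. With total reads on genes this share was 64.7%.

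**Figure D4:**
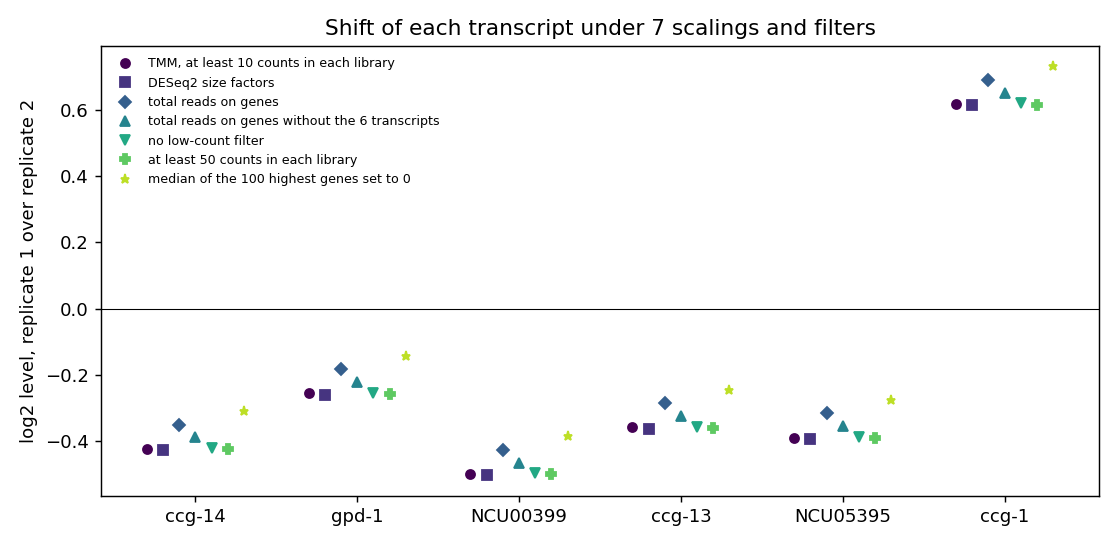
Log2 shift of each transcript between the libraries (replicate 1 over replicate 2) under 7 scalings and filters, one symbol each. All values of the 5 leading transcripts are below 0, from -0.50 to -0.14, and all of ccg-1 are above 0, from 0.61 to 0.73.

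The other clock-controlled genes also divided, some with ccg-14 and some with ccg-1. The reference table names 12 such genes, and 11 had enough reads for the test. Of these 7 were higher in replicate 2, 3 were higher in replicate 1 and 1 did not pass, with a median shift of -0.26. Over all tested genes the median was 0.00, with 14% higher in replicate 2 and 13.1% in replicate 1. High genes lay towards replicate 2 more often, at 59 of the 100 highest with a median of -0.11. Among those 100 were 7 of the 11, of which 5 were higher in replicate 2 and 2 in replicate 1. Without ccg-14, gpd-1, ccg-13 and ccg-1, 7 tested genes remained. Of the remaining genes 4 were higher in replicate 2, 2 were higher in replicate 1 and 1 did not pass, with a median of -0.22. Of these, ccg-15 (also the cell wall gene acw-1) had 61227 and 70931 reads in replicates 1 and 2, a shift of -0.33. The trehalose synthase gene ccg-9 had 6408 and 8923 reads in replicates 1 and 2, a shift of -0.60. For ccg-6 the shift was -0.22 and for ccg-8 it was -0.28. On the side of ccg-1 stood ccg-16, with 30240 reads in replicate 1, 22913 in replicate 2 and a shift of 0.28, and eas.

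The hydrophobin gene eas, also named ccg-2, whose product coats conidia with a water-repellent rodlet layer, differed most. Replicate 1 held 9721 of its reads and replicate 2 held 2241, which is a shift of 2.00. The metallothionein gene cmt (ccg-12) had 6769 and 6139 reads in replicates 1 and 2 and did not pass (shift 0.02, exact binomial test, adjusted p = 0.606). The pheromone precursor gene ccg-4, of mating type A, had 0 reads in both. The count of 7 higher in replicate 2 was the same under all 7 settings, and the count higher in replicate 1 was 4 with total reads and with centring on the 100 highest genes.

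The clock's own components were genes of modest level. The clock gene frq had 604 reads in replicate 1 and 713 in replicate 2 (shift -0.36), and the photoreceptor gene wc-1 had 976 and 1059 in replicates 1 and 2 (shift -0.24). Both passed the exact binomial test between the libraries, as higher in replicate 2. Its partner wc-2 had 391 and 340 reads in replicates 1 and 2, a shift of 0.08 that did not pass (exact binomial test, adjusted p = 0.669). Per length, wc-1 stood at 22.8 CPM per kb, frq at 19.8 and wc-2 at 14.7. The clock-controlled genes covered a wide range on this scale, from ccg-4 with no reads and ccg-8 at 63.3 CPM per kb to ccg-13 at 14951, which was chosen for its level. In the whole list of 9 clock and light genes 5 were higher in replicate 2 and 2 in replicate 1, with a median of -0.13. Over all tested genes 14% were higher in replicate 2 and 13.1% in replicate 1. With centring on the 100 highest genes 3 of the 9 were higher in replicate 2.

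Of the genes for cell wall proteins, more were higher in replicate 2, as ccg-13 and ccg-14 were, than in replicate 1. This list, the acw (anchored) and ncw (non-anchored) cell wall genes of the reference table, was written after the files had been opened, and it is described without a test of the list. Of its 19 genes 14 were higher in replicate 2, among them ccg-13, 4 were higher in replicate 1 and 1 did not pass, with a median shift of -0.25 and the same counts under all 7 settings. Over all tested genes 14% were higher in replicate 2, but high genes lay on that side more often, at 59 of the 100 highest with a median of -0.11. Of the 19 genes 10 are among those 100, and these 10 were all higher in replicate 2, with a median of -0.33. Together the 19 genes of the list held 6.63% of replicate 1 and 7.84% of replicate 2, and without ccg-13 these shares were 5.13% and 6.01%. In reads acw-3 came next after ccg-13, with 72679 reads in replicate 1, 79535 in replicate 2 and a shift of -0.25. The lower ranks included acw-6 at 1.02, with 1929 reads in replicate 1 and 878 in replicate 2.

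Glycolysis and fermentation enzymes shifted in both directions. Of the 11 genes of this list 7 were higher in replicate 2, gpd-1 among them, 2 were higher in replicate 1 and 2 did not pass, whereas with centring on the 100 highest genes 4 were higher in replicate 2 and 6 in replicate 1. Besides gpd-1 the 11 genes of this list held cfp with 91839 reads in replicate 1 and 91261 in replicate 2 (shift -0.11), the alcohol dehydrogenase gene adh-1 with 94350 and 74136 (0.23), and the enolase gene emp-7 with 58578 and 62406 (-0.21). The median of the list was -0.08 with TMM and 0.03 with centring on the 100 highest genes, so its direction depends on the scaling. At -0.26 gpd-1 lay below the TMM median, and the enzyme genes ranged from -0.35 at ace-8, for pyruvate kinase, to 0.38 at fba, for aldolase.

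Medians of the housekeeping lists lay near 0. For their counts the shares over all tested genes were 13.1% higher in replicate 1 and 14% higher in replicate 2. The lists hold only genes found by name in the reference table, where 1118 of 10590 genes have a symbol. The 10 cytoplasmic ribosomal protein genes so found had a median of -0.03, with 3 higher in replicate 1, 2 in replicate 2 and 5 not passing. The sign of that median changed with total reads. The 3 translation factor genes were led by tef-1, elongation factor 1-alpha, with 55401 reads in replicate 1 and 52585 in replicate 2, a shift of -0.04. All 3 were higher in replicate 2, the others being cot-3 at -0.06 and un-10, with 448 and 500 reads in replicates 1 and 2, at -0.28. Their median was -0.06, and with total reads it was 0.01 with 0 higher in replicate 2 and 1 in replicate 1. The actin gene act and the tubulin genes tba-1 and tba-2 had a median of -0.03, whose sign also changed with total reads.

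**Figure D5:**
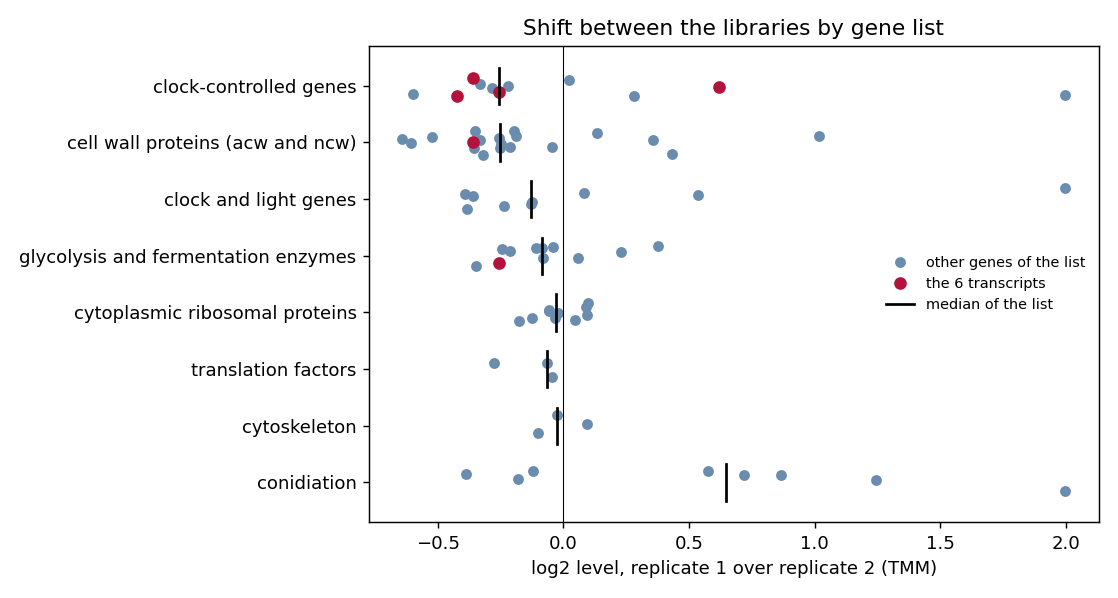
Log2 shift between the libraries (replicate 1 over replicate 2, TMM scaling) for the tested genes of 8 lists, one point per gene, with the 6 transcripts in red where a list holds them and a black bar at the median of each list. The medians are -0.26 for clock-controlled genes, -0.25 for cell wall proteins and 0.65 for conidiation genes.

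Markers of conidia or of hyphae that form conidia also differed between the libraries. Which of these the cultures held was not tested. All 8 markers had reads, summed to 4094 CPM in replicate 1 and 3395 CPM in replicate 2, with con-13 lowest at 1 read in replicate 1 and 0 in replicate 2. The gene eas made up 1385 CPM of the sum in replicate 1 and 330 CPM in replicate 2, while con-8 was at 1515 CPM in replicate 1 and 1885 CPM in replicate 2. Without eas the sum was higher in replicate 2, so the higher sum in replicate 1 rested on eas. Of the 8 tested genes of the wider conidiation list 5 were higher in replicate 1, as ccg-1 was, and 3 in replicate 2, with a median of 0.65. Over all tested genes 13.1% were higher in replicate 1 and 14% in replicate 2. With total reads and with centring on the 100 highest genes 5 of these 8 conidiation genes were higher in replicate 1, and 1 in replicate 2. Their part in the shifts of the 6 transcripts was not tested. Of 6 markers of sexual tissue, 2 were at 0, the mating type gene matA-1 and ccg-4. Both are genes of mating type A and the strain is of mating type a, so these 2 say nothing on sexual tissue. The sum of the list was 594 CPM in replicate 1 and 1143 CPM in replicate 2, mostly asd-1.

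Other genes of high level with shifts like those of ccg-14 and ccg-1 were named by the smallest difference in log2 shift among the 100 highest genes, a likeness over only 2 libraries. Nearest to ccg-14 were NCU06871 (symbol do) at -0.43, NCU06207 at -0.44 and NCU02668 at -0.41. Nearest to ccg-1 were hex-1, which encodes the core protein of the septum-plugging Woronin bodies, at 0.52, nmt-1 at 0.45 and fba at 0.38. The closest of these lay 0.10 away from ccg-1 and 0.005 away from ccg-14.

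None of the 6 transcripts was in the authors' deposited tables, which hold 305 genes called higher in Δlsd1 and 755 called lower, 3.13% and 7.76% of the counted genes and 10.9% in all. The tabled genes had absolute log2 fold changes of at least 1.00 and unadjusted p-values of at most 0.0497, so a gene outside them changed less than 2-fold or missed the threshold, and which of these holds for the 6 is not known without wild-type counts. On the scale of the authors' deposited tables, recovered from the tabled genes to within a relative error of 5.11e-15, ccg-14 would stand at 475653 in Δlsd1 and ccg-1 at 41203. The highest Δlsd1 mean in the authors' deposited tables was 23917, of the blue light-induced gene bli-4, so all 6 transcripts had more reads in Δlsd1 than any tabled gene. Of the 100 highest genes 5 were in the authors' deposited table of higher genes and 0 in that of lower genes, and since the 100 were picked by their level in Δlsd1 the split is a description.

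Among related genes outside the 6, the authors' deposited table of higher genes held the light-induced genes bli-4 at a log2 fold change of 1.49 and bli-3 at 1.40 and the cell wall genes acw-11 at 1.30 and ncw-6 at 1.06. Of the 9 genes of the conidiation list, the authors' deposited tables held 2 as higher and 2 as lower. Over all counted genes the shares were 3.13% and 7.76%. Those in the table of higher genes were csp-2 at 1.05 and con-6 at 1.41, where the adjusted p of con-6 was 0.162. Those in the authors' deposited table of lower genes were con-10 at -1.75 and acu-6, also named con-3, at -1.88. None of the 12 clock-controlled genes and none of the 11 glycolysis and fermentation genes was in either table. Over all counted genes 10.9% were, a share at which lists this short would hold few, so their absence is a description only.

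The counted genes next to the 6 transcripts each had fewer reads than the transcript beside them. Their ranks by mean CPM ran from 18 at gel-3 to 8408 at NCU01529, among 9730 counted genes. Beside ccg-14 lay the transcription factor gene col-26, with 495 reads in replicate 1 and 557 in replicate 2, which stood in the authors' deposited table of lower genes at a log2 fold change of -1.004 (adjusted p = 1.85e-06), and NCU07786 with 5 and 2 reads in replicates 1 and 2. Beside NCU05395 lay NCU05394, with 454 and 867 reads in replicates 1 and 2, at -1.30 in the authors' deposited table (adjusted p = 0.000535). Of these neighbours, the gene nearest to ccg-13 on its left had the most reads. This was gel-3, for a glucan-modifying enzyme of the cell wall, with 49401 reads in replicate 1 and 59089 in replicate 2, a mean rank of 18 and a shift of -0.38 beside the -0.36 of ccg-13. The neighbours of gpd-1 had at most 59 reads, and those of ccg-1 were NCU03752 with 188 and 146 reads in replicates 1 and 2 and NCU03754 with 932 and 917. Around NCU00399, besides the overlapping NCU00398, lay NCU00397 with 1393 and 1179 reads in replicates 1 and 2 and NCU00400 with 176 and 131.

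None of the 6 genes overlapped any of the 250 regions deposited with the series, whose calling the sources used here do not describe. The nearest region lay 24.3 kb from ccg-1, 40.4 kb from NCU00399, 82.6 kb from NCU05395, 98.9 kb from ccg-13, 259 kb from gpd-1 and 279 kb from ccg-14. Over 10397 annotated genes on the chromosomes the median distance was 65.2 kb and 254 genes overlapped a region, so 2 of the 6 lay nearer than the median and 4 farther. The region nearest to ccg-1 (chromosome V, 2267536 to 2278329) was the longest of these at 10794 bp.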

How the data were processed

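The deposited count files give raw read counts per gene for 2 Δlsd1 RNA-seq libraries from a stranded mRNA kit, according to the protocols in the labels. Bowtie2, DESeq2 and deepTools are named in the submitters' processing notes. Versions, build, counting program and use of strand are not stated in the sources used here. Closing rows that name no gene were left out. They made up 16.1% of counted reads in replicate 1 and 16.2% in replicate 2.

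The authors' 2 tables hold, as deposited, a mean normalised count (a signal), a fold change as ratio, its log2, and p-values before and after adjustment, all per the file headers. A further 2 columns, one of wild-type means, were not used. The deposited region list gives positions, with a unit of other, and its supercontigs were matched by number to chromosomes of NC12. The reference table matched 9729 of 9730 identifiers. It holds gene spans and no sequences.

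TMM factors and the common dispersion came from edgeR 4.0.16 in R 4.3.3, with size factors of DESeq2 1.42.0 as an alternative. With 1 group no contrast could be fitted, so each gene's split was tested by an exact binomial test in scipy 1.17.1. The test was checked on data simulated with counting error alone, so the check does not cover spread between libraries. The threshold was an adjusted p of 0.05. The members and lists were chosen with earlier results of these data known, and the list of cell wall genes was written after the files had been opened. Named genes are the members, the 5 that follow by mean CPM, the 3 nearest in shift to ccg-14 and to ccg-1, clock-controlled genes, up to 4 leading and all tabled genes of each list, and neighbours. The genes ncw-5, acw-6, ace-8, wc-1, wc-2, frq, con-13, matA-1 and asd-1 were chosen after their values were seen. The other 14 samples were not analysed here.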

Additional observations from a re-analysis of the deposited data

How the results depend on the processing

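All 6 shifts between the libraries kept their direction and passed the exact binomial test under each alternative: size factors of DESeq2, total reads with and without the 6 transcripts, both filters and the added centring. The number of genes that passed ranged from 1912 to 2242, against 1983 with TMM. The mean summed share of the 6 transcripts was 12.04% of reads on genes and 10.1% of all counted reads, and with 1 replicate left out it ranged from 10.9% to 13.2%. The biological coefficient of variation was 15.3%, and 14.7% with at least 50 reads in each library. With only genes under an adjusted p of 0.05 kept in the authors' deposited tables, 0 of the 6 were in them, as with every gene of the tables. Levels with all counted reads as the library size were lower, by more than the spread of the libraries for gpd-1 (20009 CPM), ccg-13 (13949 CPM) and NCU05395 (13040 CPM). The alternative of ranking by coding length was not run, since no protein table was given. No paired analysis was possible because only 1 group has files here. With 2 libraries of 1 strain, the spread between libraries rests on 1 pair, and whether it holds spread between cultures is not known.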
